A study of Mus musculus with 6 samples.

Results

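The 36 genes described here encode the Eph receptors and their ephrin ligands, the Robo receptors and their Slit ligands, and the netrins with the DCC, neogenin and Unc5 receptors. They were picked by symbol from 41388 genes, with earlier results of these data known. There were 23 receptors (14 Eph, 3 Robo and 6 netrin receptors) and 13 ligands (8 ephrins, 3 Slits and 2 netrins). All 36 were found in the count tables. The RNA came from EGFP-positive cells that were sorted from dorsal root ganglia (DRG, the ganglia that hold the cell bodies of body sensory neurons) at spinal levels T11 to S1. The embryos were C57BL/6 at 18.5 dpc (days after coitum) and all carried Ret-EGFP, a reporter for Ret, the signalling receptor for GDNF family ligands. The genotype label reads Tg(Ret-EGFP)SJ, whereas the series description speaks of heterozygotes with EGFP placed in the Ret locus, so whether 1 Ret allele was interrupted is not settled here. There was no EGFP-negative population and no other stage or treatment among the libraries analysed here. The 3 male libraries (A, C and D) held 60 ganglia of 3 embryos, 40 of 2 and 40 of 2. The 3 female libraries (A, B and C) held 60 ganglia of 3 embryos, 20 of 1 and 20 of 1. Female B and female C carry labels in another form (their own tag for age and another spelling of the genotype) and are called record set 2. Record set, the number of embryos in a library and sex cannot be fully told apart, since both libraries of record set 2 are female and hold 1 embryo each.

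These families steer growing axons. Eph receptors are receptor tyrosine kinases that bind ephrins on the surface of a neighbouring cell; the A class binds mainly ephrin-A ligands, which are held in the membrane by a GPI anchor, and the B class mainly ephrin-B ligands, which span the membrane and can signal backwards into their own cell. Slits are secreted proteins that repel axons through Robo receptors. Netrins are laminin-like secreted proteins that attract axons through DCC and repel them when an Unc5 receptor takes part. Sensory neurons of the DRG use these cues at the spinal cord, along peripheral nerves and in their targets.

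Total counts were 17861500 to 29330101 per library, and a gene at 0 could still have had up to 3 counts, or 0.102 to 0.168 CPM (counts scaled to a common library total). This limit takes in counting error alone, as the amplified reads had no molecular identifiers. Of 16 listed sensory neuron markers, 15 were matched by symbol (Drg11 was not), and all 15 passed the filter on low counts used below. Stmn2 had a length-scaled level of 2779 ± 403, Tubb3 of 2388 ± 544, Ret of 24.7 ± 3.69 and Tlx3, the lowest, of 0.681 ± 0.197 (SD, n = 6). The length-scaled level used throughout is the CPM with TMM normalization per kilobase of the gene's exons, so that genes of different length can be compared. Male A stood apart from the other libraries. The summed CPM of 13 fibroblast and meninges markers was 2957 in male A and 636 to 758 in the others, that of 16 satellite glia and Schwann cell markers 5297 against 2169 to 2625 (12 genes highest in male A, but Fabp7, S100b and Gfra1 lowest there), and that of 10 cycling cell markers 391 against 123 to 164. Endothelial and pericyte markers summed to 108 CPM in male A and 43.3 to 83.7 in the others, and leukocyte markers to 14.7 against 8.86 to 12.0. The sensory neuron sum was 16750 CPM in male A and 17570 to 23430 in the others. In bulk RNA of this kind, fewer cells of a type and less RNA per cell cannot be told apart.

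The promoters of 6 members are printed here because they belong to the genes on which the results turn. They are Efna1 and Efna5, the most abundant members, and Efna3 and Efna4, the members nearest to Efna1 on chromosome 3. Ephb2 and Epha8 follow each other among the members on chromosome 4. Each window is the 250 bases before the transcription start that RefSeq gives on GRCm38.p6, read 5′ to 3′ on the strand of the gene, with every CpG dinucleotide in capitals. RefSeq lists 2 starts for Efna1 and for Efna3, and the one nearest the 5′ end of the gene in the authors' files was used. Both windows overlap the counted gene, which ends at chr3:89281142 for Efna1 and chr3:89322965 for Efna3. The 50 bases after the start lay in a known transcript for 28 of 31 members with a window, but not for Ephb2. The ephrin-A windows are at chr3:89280952-89281201, chr3:89322940-89323189, chr3:89338029-89338278 and chr17:62881318-62881567, all on the minus strand.
Efna1: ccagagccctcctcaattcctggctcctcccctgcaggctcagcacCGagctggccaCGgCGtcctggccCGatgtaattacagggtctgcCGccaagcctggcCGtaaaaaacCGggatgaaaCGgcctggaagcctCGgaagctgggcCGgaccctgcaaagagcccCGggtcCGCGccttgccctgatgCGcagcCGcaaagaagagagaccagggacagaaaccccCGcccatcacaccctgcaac
Efna3: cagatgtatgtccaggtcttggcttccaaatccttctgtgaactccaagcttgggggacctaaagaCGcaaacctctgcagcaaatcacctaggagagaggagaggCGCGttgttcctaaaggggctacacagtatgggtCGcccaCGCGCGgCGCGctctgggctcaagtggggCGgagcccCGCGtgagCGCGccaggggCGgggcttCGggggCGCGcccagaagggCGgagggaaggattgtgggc
Efna4: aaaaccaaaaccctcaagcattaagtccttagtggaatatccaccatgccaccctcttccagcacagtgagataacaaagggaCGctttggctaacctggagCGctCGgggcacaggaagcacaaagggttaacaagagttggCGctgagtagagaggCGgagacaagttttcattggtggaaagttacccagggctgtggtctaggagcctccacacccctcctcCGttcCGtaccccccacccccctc
Efna5: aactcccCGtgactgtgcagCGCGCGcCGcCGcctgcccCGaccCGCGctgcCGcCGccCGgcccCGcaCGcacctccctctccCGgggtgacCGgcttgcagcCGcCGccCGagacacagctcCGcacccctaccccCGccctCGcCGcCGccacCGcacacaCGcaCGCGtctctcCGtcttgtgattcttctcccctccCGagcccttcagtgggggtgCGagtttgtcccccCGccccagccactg
The 2 Eph receptor windows are at chr4:136836013-136836262 and chr4:136956817-136957066, also on the minus strand.
Ephb2: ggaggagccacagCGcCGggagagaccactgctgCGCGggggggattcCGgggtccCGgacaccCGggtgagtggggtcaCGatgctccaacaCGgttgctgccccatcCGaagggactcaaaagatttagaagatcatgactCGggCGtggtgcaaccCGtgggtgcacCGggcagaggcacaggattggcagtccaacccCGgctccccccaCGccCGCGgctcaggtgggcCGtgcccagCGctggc
Epha8: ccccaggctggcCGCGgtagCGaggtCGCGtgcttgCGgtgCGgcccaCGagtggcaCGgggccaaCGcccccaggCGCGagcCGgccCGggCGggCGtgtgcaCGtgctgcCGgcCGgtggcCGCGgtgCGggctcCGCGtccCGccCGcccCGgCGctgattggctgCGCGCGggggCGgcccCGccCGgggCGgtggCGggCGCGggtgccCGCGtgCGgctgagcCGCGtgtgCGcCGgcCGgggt
The Efna5 window held 32 CpG dinucleotides, that of Efna1 16, Efna3 19 and Efna4 7. The Epha8 window held 46, more than 99.7% of all windows, and that of Ephb2 20.

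Ligand transcripts outnumbered receptor transcripts per kilobase in all 6 libraries, and a pair of ephrin-A genes carried most of the difference. The order of all ligands against all receptors rests on the division by length: in CPM alone the receptors summed to 337 ± 66.4 and the ligands to 325 ± 103, with ligands above receptors in 3 of 6 libraries, while ephrins stayed above Eph receptors in all 6. The summed length-scaled level of the 8 ephrins was 108 ± 27.9 (SD, n = 6) and that of the 14 Eph receptors 16.4 ± 1.77. The ratio of ephrins to Eph receptors was 5.07, 4.77 and 6.26 in male A, C and D and 6.06, 10.1 and 7.74 in female A, B and C. For the other families the order was the opposite. Robo receptors summed to 10.1 ± 3.09 against 0.765 ± 0.158 for the Slits, and netrin receptors to 7.33 ± 1.67 against 0.130 ± 0.104 for the netrins. Of all 36 members, 11 had a level of at least 1 in every library (5 of 23 receptors and 6 of 13 ligands), 29 had more than 3 counts in every library, 6 had so in some libraries, and 1 stayed at or under 3 counts in all. The mean level was under 1 in 22 members. Counts against a level of 1 rest on the unit, and with TPM 16 members had at least 1 in every library.

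**Figure D1:**
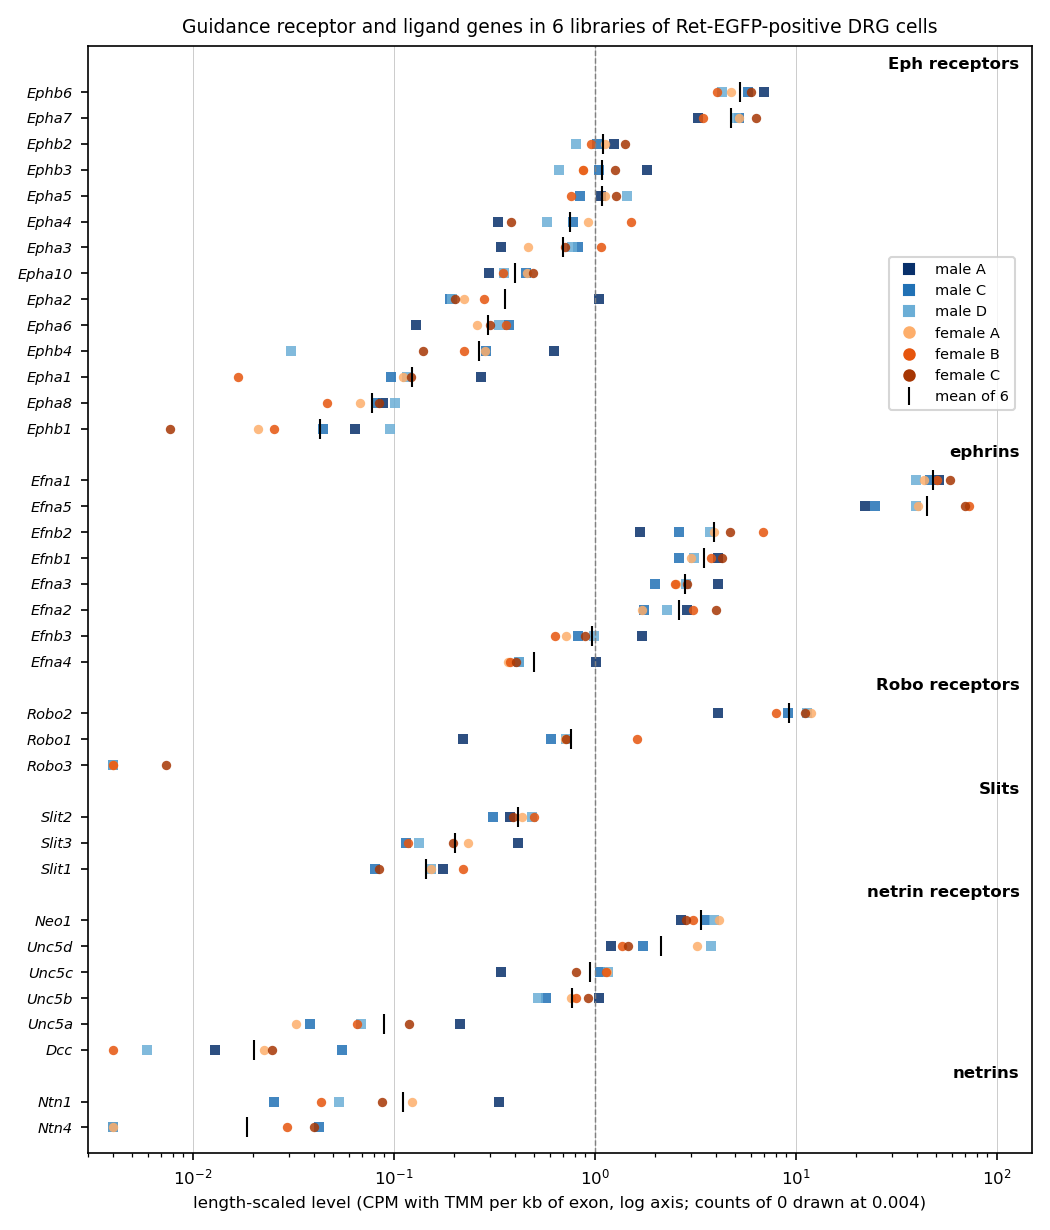
Length-scaled level (CPM with TMM per kilobase of exon, log axis) of each of the 36 members in the 3 male (squares) and 3 female (circles) libraries; black ticks are means of 6, and counts of 0 are drawn at 0.004. Efna1 and Efna5 sit above 20 in every library, while Robo3 had 1 count in all, Dcc 25 and Ntn4 10, and the mean of Robo3, 0.0012, lies left of the axis.

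**Figure D2:**
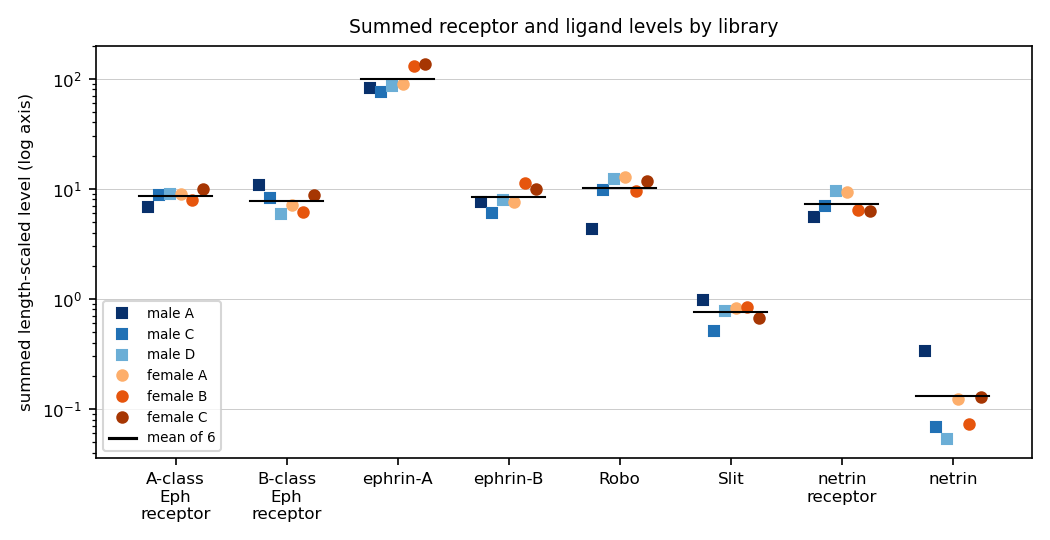
Summed length-scaled level (log axis) of each receptor and ligand class by library, with the mean of 6 as a bar. Ephrin-A genes sum to 75.3 to 135 and netrins to 0.053 to 0.333, with male A highest among the netrins and lowest among the Robo receptors.

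The ephrin-A ligands Efna1 and Efna5 were the most abundant members. Efna1 (ENSMUSG00000027954, chr3:89271733-89281142 of GRCm38 in the authors' files, minus strand) had a level of 51.7, 46.4 and 39.6 in male A, C and D and 43.8, 50.7 and 58.6 in female A, B and C. These values lie close together, with a coefficient of variation of 13.8%, the lowest of the 29 members that could be tested. Efna5 (ENSMUSG00000048915, chr17:62604184-62881317, minus strand) had 22.2, 24.8 and 39.8 in male A, C and D and 40.6, 73.2 and 69.3 in female A, B and C. Its values spread widely (coefficient of variation 48.3%), and Efna1 was above Efna5 in 3 of the 6 libraries. Efna1 exceeded 91.1% and Efna5 90.6% of the 14958 genes tested between the sexes. Together they made up 82.6% to 88.1% of the ephrin sum.

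The other ephrins were lower. Efnb2, a transmembrane ephrin known from arterial endothelium and from reverse signalling in axons, had 1.68, 2.62 and 3.76 in male A, C and D and 3.91, 6.88 and 4.72 in female A, B and C. Its lowest value was in male A and its highest in female B. Efnb1, an X-linked ephrin, stood at 3.50 ± 0.666 (2.64 to 4.31), Efna3 at 2.82 ± 0.716 (2.00 to 4.13) and Efna2 at 2.62 ± 0.883 (1.71 to 4.00; SD, n = 6). The ranges of Efnb2, Efnb1, Efna3 and Efna2 overlapped from one to the next. Efnb3, which acts as a midline barrier in the spinal cord, had a mean of 0.965 and Efna4 of 0.501. Efna4 had 1.01, 0.420 and 0.419 in male A, C and D and 0.371, 0.378 and 0.406 in female A, B and C. Its other 5 values lie within a narrow band, and male A lies above them. These Efna4 values rest on 11 to 31 counts, and 168 bases of its exons overlap 4731419I09Rik on the opposite strand. By class, ephrin-A genes supplied 91.5% to 93.2% of the ephrin sum.

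Among Eph receptors, Ephb6 and Epha7 led, and the classes were near each other. Ephb6 (ENSMUSG00000029869, chr6:41605482-41620509, plus strand), a receptor whose kinase domain lacks catalytic activity, had 6.99, 5.77 and 4.30 in male A, C and D and 4.77, 4.06 and 6.01 in female A, B and C. Epha7 (ENSMUSG00000028289, chr4:28813131-28967499, plus strand), a receptor known from the ordering of axonal maps, had 3.29, 5.20 and 5.03 in male A, C and D and 5.23, 3.48 and 6.33 in female A, B and C. Their ranges overlapped, Ephb6 was the higher in 3 of 6 libraries, and with the longest transcript as the length Epha7 came first, at 6.97 against 5.33. These receptors made up 53.7% to 65.8% of the Eph receptor sum. After them came a group near 1. Ephb2, which takes part in axon guidance and synapse formation, had 1.25, 1.03 and 0.809 in male A, C and D and 1.13, 0.958 and 1.42 in female A, B and C. Ephb3 (1.09 ± 0.410) and Epha5 (1.09 ± 0.254) could not be ordered against it beyond their spread.

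Lower still were Epha4 (0.754 ± 0.438), a receptor that can bind ephrins of both classes, Epha3 (0.699 ± 0.262), Epha10 (0.402 ± 0.0784, and 0.621 with the longest transcript as the length), another receptor without kinase activity, and Epha6 (0.294 ± 0.0912). Epha2, best known from epithelia, had 1.05, 0.191 and 0.195 in male A, C and D and 0.225, 0.282 and 0.203 in female A, B and C. Without male A its mean was 0.219 in place of 0.358. Ephb4, known from venous endothelium, had 0.631, 0.289 and 0.031 in male A, C and D and 0.285, 0.225 and 0.140 in female A, B and C. Its 3 counts in male D were at the limit. Epha1 had 0.272, 0.0976 and 0.117 in male A, C and D and 0.112, 0.0168 and 0.122 in female A, B and C, so that male A was more than 2 times the next library. It had 52 counts in all libraries together, Epha8 49 and Ephb1 37. Epha1 shares 236 bases of exon with Zyx on the opposite strand and Ephb1 152 with Gm26846, and without strand in the counting the reads of such pairs cannot be told apart.

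The A and B classes of Eph receptor had sums of 8.56 ± 1.04 (9 genes) and 7.82 ± 1.84 (5 genes; SD, n = 6). The A share of the receptor sum was 39.0%, 52.0% and 60.2% in male A, C and D and 55.6%, 56.3% and 52.9% in female A, B and C. The A class was the larger in 5 libraries and the smaller in male A, where Ephb6, Ephb3 and Ephb4 had their highest levels. On the ligand side the ephrin-A sum was 99.4 ± 26.1 and the ephrin-B sum 8.39 ± 1.88. The B-class ligand and receptor sums were thus of similar size, whereas the A-class ligand sum stood far above its receptors in every library.

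The Slit receptors were dominated by 1 gene. Robo2 (ENSMUSG00000052516, chr16:73892306-74411825, minus strand), a Slit receptor required for guidance of several sensory and commissural tracts, had 4.09, 9.18 and 11.4 in male A, C and D and 12.0, 7.99 and 11.1 in female A, B and C. By its mean it was the highest receptor of the 23, though in male A it was below Ephb6, and it supplied 83.1% to 94.9% of the Robo sum. With the longest transcript as the length its mean was 17.9 in place of 9.30. Robo1, its closest relative, had 0.221, 0.604 and 0.722 in male A, C and D and 0.712, 1.63 and 0.719 in female A, B and C. Both receptors were lowest in male A, and Robo1 was highest in female B by more than 2 times over the next library. Robo3, which in commissural axons governs the crossing of the midline, had 1 count in the 6 libraries together; in the 5 libraries at 0, 3 counts would be a level of 0.0142 to 0.0243. Its ranges did not overlap with those of Robo1, nor those of Robo1 with those of Robo2.

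All 3 Slits were detected in every library at low levels. Slit2 had 0.378, 0.314 and 0.489 in male A, C and D and 0.436, 0.499 and 0.391 in female A, B and C, from 109 to 154 counts. Slit3 had 0.414, 0.116 and 0.134 in male A, C and D and 0.233, 0.118 and 0.197 in female A, B and C. Slit1 had 0.177, 0.0809 and 0.154 in male A, C and D and 0.154, 0.222 and 0.0843 in female A, B and C. Slit2 had the highest mean of the 3 (0.418, or 0.632 with the longest transcript as the length), and Slit3 and Slit1 were not separated beyond their spread. The ratio of Robo to Slit sums was 4.45 in male A and 11.5 to 19.2 in the other libraries.

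Of the netrin receptors, Neo1 and Unc5d were the highest, and Dcc itself was near the limit. Neo1, which encodes neogenin, a receptor for netrins and for repulsive guidance molecules, had 2.68, 3.54 and 3.92 in male A, C and D and 4.14, 3.08 and 2.87 in female A, B and C. Unc5d had 1.20, 1.73 and 3.77 in male A, C and D and 3.23, 1.37 and 1.47 in female A, B and C. Male D and female A thus stood above the other 4 libraries in Unc5d. Unc5c, which mediates repulsion by netrin, had 0.344, 1.07 and 1.16 in male A, C and D and 1.15, 1.14 and 0.812 in female A, B and C, and was lowest in male A. Unc5b had a mean of 0.775 ± 0.204 and Unc5a of 0.0898 ± 0.0679 (SD, n = 6). Dcc had 0.0130, 0.0554 and 0.00594 in male A, C and D and 0.0226, 0 and 0.0248 in female A, B and C. These are 25 counts in 6 libraries, 14 of them in male C.

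Both netrins among the members were at the low end. Ntn1, the netrin of the floor plate, had 0.333, 0.0254 and 0.0534 in male A, C and D and 0.124, 0.0437 and 0.0875 in female A, B and C. These are 40, 5 and 7 counts in the males and 17, 5 and 11 in the females, so male A held 40 of 85 counts. Ntn4, a netrin of basement membranes, had 10 counts in all and none in male A, male D and female A. Of 11 spinal cord and floor plate markers, Mnx1, Olig2, Nkx6-1, Lhx3 and Lhx5 were at 0 in every library. Among the other 6, Shh, which the floor plate secretes, had 0 in male A and male C and 0.0712 to 0.204 in the other 4 libraries. The mean of Shh was 0.218 CPM, little above the limit of 3 counts. Ntn1 was highest in male A and lowest in male C, and its source was not tested. Foxa2, Nkx2-2, Chat and Pax6 reached at most 0.0860 in any library, and Slc5a7, a choline transporter, had a mean of 2.77 ± 0.932.

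Other ligands of the same receptors, taken from the pathway lists by that role and named after their values were seen, ranged from below Slit2 to well above every Slit and netrin. Nell2, from the Slit and Robo list, had a level of 15.4 ± 3.15 (12.4 to 20.5). Which of the Robo receptors it binds was not tested, and Robo3 had 1 count in all libraries together. Rgmb, which binds neogenin, had 19.8 ± 2.89 (16.8 to 24.7), whereas its relative Rgma had 0.294 ± 0.117, below Slit2. Flrt3, a membrane protein that binds Unc5 receptors, had 24.8 ± 4.44, Flrt1 9.49 ± 2.66 and Flrt2 3.84 ± 0.814 (SD, n = 6). Draxin, which binds DCC, stood at 0.967 ± 0.320. Ntn5, another netrin of the list, stood at 0.0709 ± 0.0781, a mean of 0.157 CPM.

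Spread between libraries was larger for these genes than for most. The median coefficient of variation of the 29 tested members was 34.1%, against 25.3% over all 14958 tested genes, and 20 of the 29 lay above the latter. The members were also lower than most, with 5 of 29 above the median level of all tested genes, 4.07. The coefficient of variation ran from 13.8% in Efna1 to 103% in Ntn1. In 4 of the 29 (Epha2, Ephb4, Efna4 and Ntn1) male A was at least 2 times the next highest library, beside a background of 4.45% of all tested genes. With Robo1 in female B, 5 of 29 had 1 library at least 2 times the next, against 5.14% of all tested genes. Male A was the lowest library in 12 of the 29, namely 10 of 17 receptors and 2 of 12 ligands, where the background was 28.3%.

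**Figure D3:**
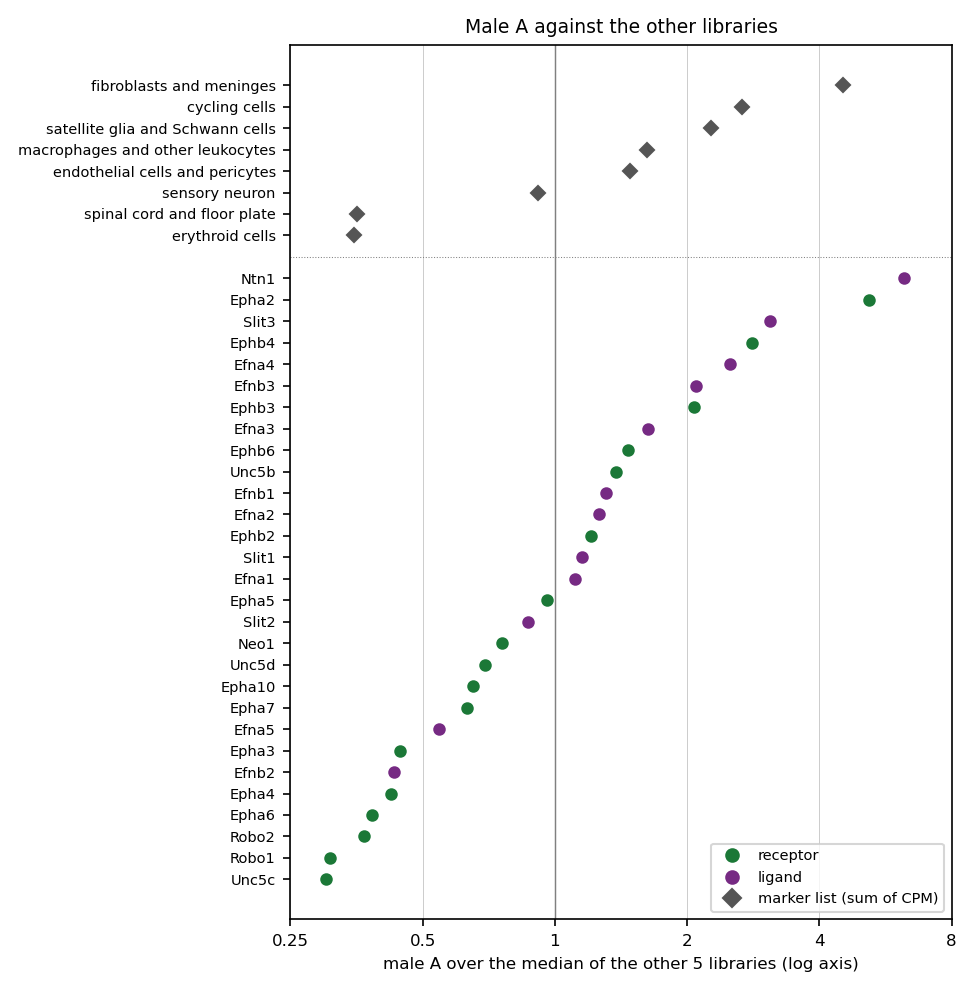
Level in male A divided by the median of the other 5 libraries (log axis) for the 29 tested members and, above the dotted line, for the summed CPM of 8 marker lists. Ntn1 and Epha2 lie furthest right among the members and Unc5c and Robo1 furthest left; the fibroblast and meninges sum is 4.53 times, and the sensory neuron sum 0.913 times, the median of the others.

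The direction in which a member departed in male A differed among related genes. Epha2, Ephb3, Ephb4, Ephb6, Efna3, Efna4, Efnb3, Slit3, Unc5b and Ntn1 had their highest level there. Epha3, Epha4, Epha6, Epha7, Epha10, Robo1, Robo2, Neo1, Unc5c, Unc5d, Efna5 and Efnb2 had their lowest. The marker sums of glia, fibroblasts, endothelium, leukocytes and cycling cells were highest in the same library, and their part in these values was not tested. Fibroblast and meninges markers such as Col1a1, at 111 in male A and 5.33 to 12.9 elsewhere, had their highest level there in 10 of 13 listed genes; Dcn, at 139 in male A and 129 to 189 elsewhere, did not.

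To ask whether any member differed by sex, the edgeR quasi-likelihood test was run on all genes that passed its filter on low counts. Of the 36 members, 29 were tested; Epha1, Epha8, Ephb1, Robo3, Dcc, Unc5a and Ntn4 had too few counts. None of the 29 passed an adjusted p of 0.05, and 2 had an unadjusted p under 0.05. Among all 14958 tested genes 4 passed (0.0267%) and 661 had such an unadjusted p (4.42%). All 4 were lower in females, so this fit called 0 genes of any kind as higher in females. DESeq2 called 13 genes, 7 higher and 6 lower in females. That 0 members were called is to be read with this limit. DESeq2 and limma voom also called 0 members, each with 2 at an unadjusted p under 0.05. The log2 change (female minus male) was positive in 17 members and negative in 12, with a median of 0.16 over the members and -0.0036 over all tested genes.

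**Figure D4:**
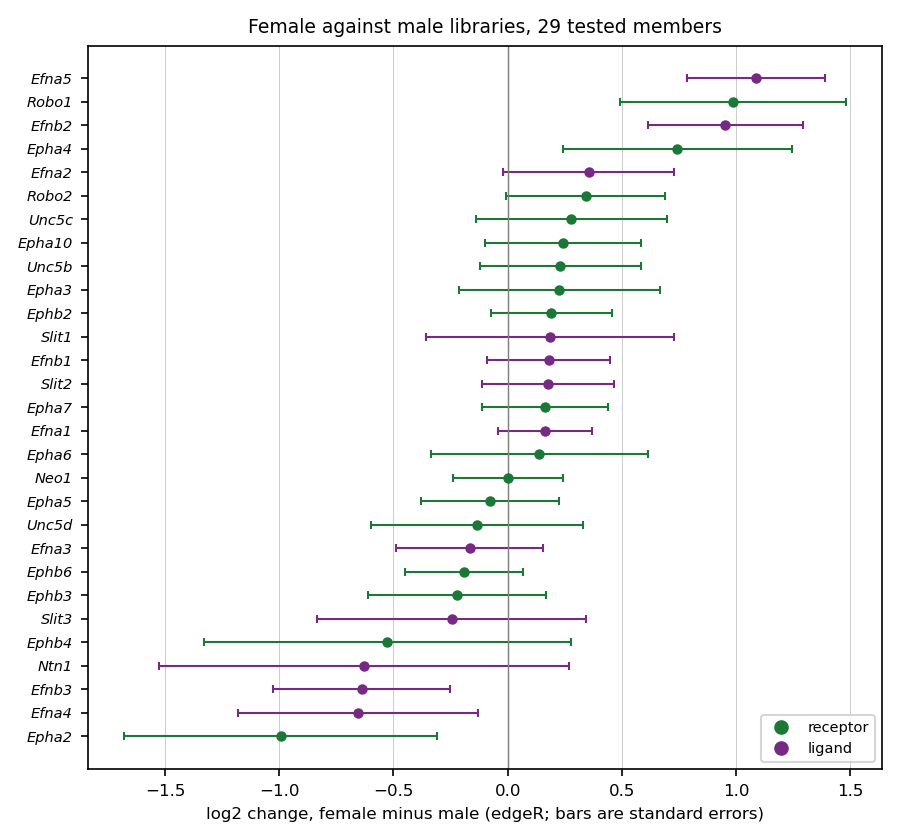
Log2 change between female and male libraries (3 each) for the 29 tested members, from edgeR, with standard errors as bars. Efna5, Robo1 and Efnb2 lie furthest to the right and Epha2 furthest to the left; no member passed the adjusted threshold.

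Efna5 and Efnb2 had all 3 female libraries above all 3 male libraries, which held for 4.02% of all tested genes. The mean level of Efna5 was 61.0 ± 17.8 in females and 28.9 ± 9.49 in males (SD, n = 3 each), a log2 change of 1.09 with a standard error of 0.303. In edgeR its adjusted p was 0.961 and its unadjusted p 0.00567. The gap between the sexes was small at its edge, with female A at 40.6 and male D at 39.8. Within record set 1 (female A against the 3 males) the log2 change was 0.49; there 1 arm is a single library, and the spread comes from the males alone. Efnb2 had a mean of 5.17 ± 1.54 in females and 2.69 ± 1.04 in males, a log2 change of 0.95 with a standard error of 0.340 and an edgeR adjusted p of 0.961. Here too female A (3.91) and male D (3.76) were neighbours, and the change within record set 1 was 0.54.

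Efna4 had all 3 female libraries below all 3 male libraries, as did 4.15% of all tested genes. Its log2 change was -0.65 with a standard error of 0.526 and -0.11 without male A. Epha2 (-0.99, standard error 0.687), Ephb4 (-0.53, 0.803) and Ntn1 (-0.63, 0.899) were also negative, and each turned positive without male A, at 0.30, 0.40 and 1.16. Robo1 had a log2 change of 0.99 with a standard error of 0.494, and 0.48 without female B. For the most abundant member, Efna1, the change was 0.16 with a standard error of 0.205, and for Robo2 0.34 with 0.348. For Neo1 the 2 means were 3.36 in females and 3.38 in males.

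Record set 2 was compared with record set 1 in a model with a term for sex. Since all males are in record set 1, this comparison sets female B and female C against female A alone, and it assumes that the lone female A varies like the other libraries; the residual spread comes from the males and from female B against female C. Of 30 members tested, 0 were called by edgeR, DESeq2 or limma voom, and 0 had an unadjusted p under 0.05 in any of these; edgeR called 0.0% of all 15536 tested genes, where 508 (3.27%) had such an unadjusted p. Efna5 had 73.2 and 69.3 in female B and C and 40.6 in female A, a log2 change of 0.82 with a standard error of 0.402. Efna2 had 3.09 and 4.00 against 1.71, a log2 change of 1.06 with a standard error of 0.499. Unc5d had 1.37 and 1.47 against 3.23, a log2 change of -1.18 with a standard error of 0.607. The edgeR adjusted p of all 3 was 1.0.

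Genes of the pathways of these receptors were read from 3 lists. Beside genes that act downstream, the lists hold other ligands, such as Nell2, Rgmb and Flrt3, and other receptors, such as Robo4 and Dscam. Of 40 ephrin signalling genes, 39 were tested between the sexes with edgeR, 22 with a positive and 17 with a negative log2 change (median 0.04), and 0 were called or had an unadjusted p under 0.05. The highest by level were Cdc42, a regulator of the actin cytoskeleton, at 448 ± 56.9, and Cdk5, a neuronal kinase, at 90.7 ± 10.4 (SD, n = 6). Of 23 Slit and Robo signalling genes 22 were tested, 13 positive and 9 negative (median 0.05), with 0 called and 0 at an unadjusted p under 0.05. Nedd4, a ubiquitin ligase, stood at 123 ± 20.2 and its adaptor Ndfip1 at 117 ± 24.7. Of 30 netrin signalling genes 28 were found and 26 tested, 17 positive and 9 negative (median 0.05), with 0 called and 0 at an unadjusted p under 0.05; the highest were Tubb3, a neuronal tubulin, and Maged1 at 325 ± 34.5. Between record sets 0 genes of the 3 lists were called by edgeR.

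Members that follow each other on a chromosome, when the members alone are ordered, differed in level. Other genes may lie between them. Efna1, Efna3 and Efna4 stand in a row on chromosome 3, with gaps of 32.8 kb and 10.4 kb, and had mean levels of 48.5, 2.82 and 0.501. Efna1 was above Efna3 and Efna3 above Efna4 in each of the 6 libraries. Ephb2 and Epha8 on chromosome 4 are 93.4 kb apart and had 1.10 and 0.0785. Ephb6 and Epha1 on chromosome 6 are 738.0 kb apart, at 5.32 and 0.123, and Robo1 and Robo2 on chromosome 16 are 846.2 kb apart, at 0.767 and 9.30. The files give these positions on GRCm38.

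RefSeq promoter windows were matched by symbol for 31 of the 36 members; Efnb3, Slit1, Dcc, Unc5d and Ntn1 had none. Each member has 1 window, whereas the sets beside it hold every listed start and so differ in unit. They hold 14185 windows of 11058 genes tested between the sexes and 32851 windows of 27025 genes in all. The median number of CpG dinucleotides in the 250 bases was 19 over the 31 members, 15 over the 14185 windows of genes tested between the sexes and 6 over all 32851 windows. It was 20 in the 13 members with a mean level of at least 1 and 15.5 in the 18 under 1. The low members Epha8 (46 CpG, level 0.0785) and Slit3 (35 CpG, level 0.202) had more than Efna1 (16 CpG) or Robo2 (14 CpG, level 9.30). The windows of Slit3 and Efna1 lie mostly within the counted gene, which for Slit3 starts at chr11:35121224. Those of Epha10 and Ntn4 lie wholly within it, and those of Ephb3 and Ephb6 overlap it in part. Such windows are not upstream of the whole counted gene. Of 4 short motifs searched on both strands, none of which contains another, GGGCGG (the core of a GC box, which itself holds a CpG) was in 74.2% of member windows, 56.1% of the windows of genes tested between the sexes and 32.7% of all windows of the same length. The TATA box motif, searched as TATAAA, was in 6.45%, 6.66% and 12.4% of these sets. TGTGGT, which RUNX factors bind, was in 9.68%, 10.5% and 14.0%, and TAATTA, which homeodomain proteins bind, in 9.68%, 2.51% and 4.84%, where 9.68% is 3 of 31 member windows. Of the printed windows, those of Efna1, Efna3, Efna5 and Epha8 hold GGGCGG, that of Efna1 also TAATTA, and that of Efna4 TGTGGT.

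**Figure D5:**
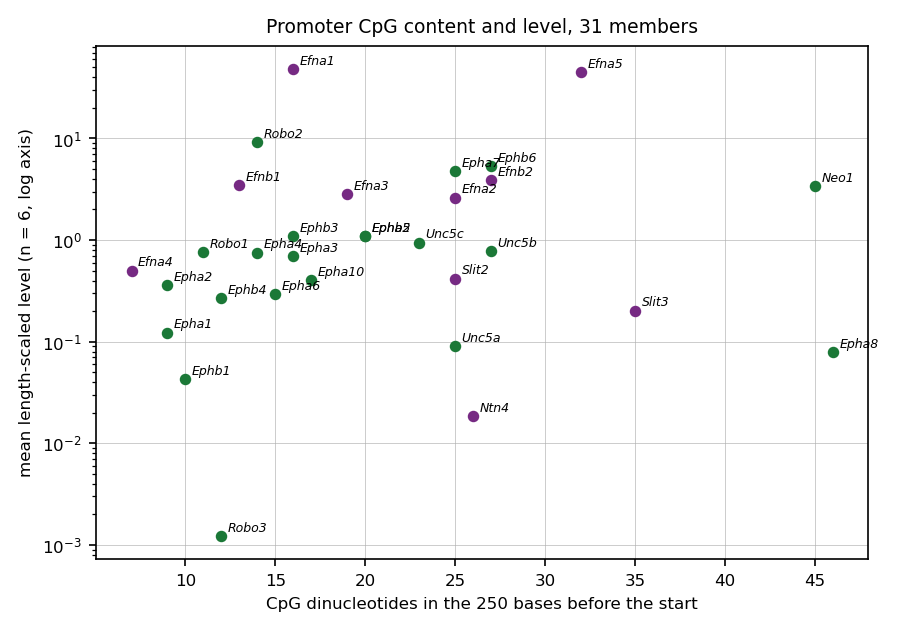
CpG dinucleotides in the 250 bases before the start (RefSeq, GRCm38.p6) against the mean length-scaled level (n = 6 libraries, log axis) for the 31 members with a window, receptors in green and ligands in purple. Efna1 and Efna5 have similar levels with 16 and 32 CpG dinucleotides, and Epha8, with 46, is among the lowest.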

How the data were processed

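RNA of sorted EGFP-positive DRG cells was measured in 6 libraries, 3 male and 3 female, grouped by the sex in the labels. Per the labels' protocols, cDNA from 10 ng of RNA was amplified by the SMARTer method. Per the submitters' processing notes, Subread and featureCounts 1.4.5 were used with GRCm38.p2; the handling of strand and of multi-mapping reads was not given in the sources used here. Deposited by the authors were counts per Ensembl gene, the summed exon length, and CPM and RPKM values computed from them. The deposited CPM and RPKM were recomputed from the counts, with largest differences of 4.5e-11 and 6.4e-12, and then not used. Symbols were given to 40254 of 41388 genes.

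Levels are CPM with TMM factors (edgeR 4.0.16, R 4.3.3) per kb of exon, given as mean ± SD over libraries. Sexes were compared with glmQLFit and glmQLFTest on the counts, after filterByExpr, with Benjamini-Hochberg adjustment over 14958 genes. Record sets were compared in the same way with sex as a term, over 15536 genes. The common dispersion between the sexes was 0.0966, a biological coefficient of variation of 31.1%. Each library is its own pool of ganglia, per the labels. Mothers are named for male C and female A only, so whether libraries share a litter is not settled here. Values in every library are given for the top 3 members by level of each family and role, for members at an unadjusted p under 0.05, for members with 1 library at least 2 times the next (of the untested members, Epha1 and Dcc), and for members whose sexes do not overlap. The 2 highest genes were named from each pathway list.

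Exon overlap of at least 100 bases was read from GENCODE M21, and near-identical stretches (at least 95% identity over 150 bases, blastn 2.17.0) were sought for every member. They cover 13.6% of the longest transcript in Epha1, 10.5% in Efna4, 4.1% in Epha6 and 3.4% in Ephb1. The matching genes are Zyx and 2010010A06Rik for Epha1, 4731419I09Rik for Efna4, 7530428D23Rik for Epha6 and Gm26846 for Ephb1. Zyx, 4731419I09Rik and Gm26846 also overlap these members by exon on the opposite strand. Their matches are thus not shown to be copies elsewhere in the genome. Exons of 6 members overlap a gene on the opposite strand: Efna3, Efna4, Epha1, Epha6, Ephb1 and Unc5c. Alternatives were RLE factors, plain library totals, no filter on low counts, a filter of 1 CPM in 3 libraries, limma 3.58.1 voom, DESeq2 1.42.0, each library left out in turn, a block for the replicate letter, record set as a term or record set 1 only, no sex term or female libraries only, and, for levels, TPM, the longest transcript as length and no division by length. The members and lists were chosen with earlier results of these data known. Erythroid markers summed to 16.5 CPM in male A and 16.5 to 62.7 elsewhere, and spinal cord and floor plate markers to 6.02 against 12.5 to 21.1.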

Additional observations from a re-analysis of the deposited data

Results flagged for a closer look

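For each member with more than 3 counts in at least 1 library and for 5 ratios and shares of summed levels, the highest or lowest of the 6 libraries was checked for a gap to the nearest other that was large against the whole range (above Dixon's 95% critical value). Of 40 such checks 5 were positive. For independent values with a normal spread, chance alone gives about 1 in 20. These checks share the same 6 libraries and use levels without a log, so their number cannot be judged against that rate. Male A stood apart in 4. Epha2 was 1.05 there and 0.191 to 0.282 in the other 5 libraries. Efna4 was 1.01 against 0.371 to 0.420. Efnb3 was 1.73 against 0.638 to 0.993. Ntn1 was 0.333 against 0.0254 to 0.124. The fifth was Robo1, at 1.63 in female B and 0.221 to 0.722 in the others. The marker sums of fibroblasts and meninges (2957 CPM in male A, 636 to 758 elsewhere) and of satellite glia and Schwann cells (5297 CPM, 2169 to 2625 elsewhere) are highest in the same library as the first 4, and their part in these values was not tested.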

How the results depend on the processing

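In either comparison 0 members were called under every alternative run; the smallest adjusted p of a member was 0.152 between the sexes (no low-count filter) and 0.0699 between record sets (female libraries only). The sign of the log2 change was the same in every setting that gave a value for 12 of 29 members between the sexes and 15 of 30 between record sets. Genes called between the sexes over the whole table were 4, against 14 without a filter, 13 with DESeq2, 1 with limma voom, and 0 with record set as a term or in record set 1 only; leaving out 1 library gave 0 (without female A) to 5. The replicate letters A and C occur in both sexes but nothing in the labels pairs them; with the replicate block 77 genes and 0 members were called, and 4 of 29 members changed sign. Between record sets 0 genes were called, against 3 without a filter, 13 with DESeq2, 3 without a sex term and 136 in female libraries only; that comparison could not be fitted without female A. Between the sexes, leaving out 1 library moved Epha2 from -1.39 to 0.30, Ephb4 from -1.06 to 0.40 and Ntn1 from -1.15 to 1.16 (log2), positive without male A each time. With limma voom Ephb4 was 0.17 and Ntn1 0.21; the cause was not tested. Between record sets Epha2 was 0.11, -0.14 (without female B) to 0.33 with 1 library left out and -0.75 without a sex term; Efna4 was 0.08, -0.015 with plain library totals and -0.48 without a sex term. With plain totals the all-gene median of the log2 change between the sexes is -0.12; changes are relative to the TMM scale. Without division by length, 22 members exceed 1, all receptors (337 CPM) no longer lie below all ligands (325 CPM), the Eph receptor to ephrin ratio is 0.402 in place of 0.160, the A share is 64.0% of Eph receptors and 89.6% of ephrins, the Robo to Slit ratio is 19.7, and Efna5 (181 CPM) lies above Efna1 (88.7 CPM). Without male A or male C, Efna5 also lay above Efna1. With the longest transcript as length 6 of 36 mean levels moved by more than their SD, among them Robo2 (17.9), Slit2 (0.632) and Epha10 (0.621), each by over 1.5 times. With TPM, a larger unit, 35 of 36 mean levels moved so, and 16 members in place of 11 had at least 1 in every library. The Eph receptor to ephrin ratio stayed at 0.160 with TPM. Leaving out 1 library gave 1 to 2 members at or under 3 counts (2 without male C, where Ntn4 had 0 to 3 counts in the rest). Depth limits Robo3, Dcc, Ntn4, Ephb1, Epha1, Epha8 and Unc5a, each with 1 to 52 counts in all.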
